A study of Xenopus laevis with 30 samples.

Results

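The genes described here were the copies of 4 transcription factor genes of the thyroid hormone response in the frog Xenopus laevis, thibz, klf9, bcl6 and nr1d1. They were chosen by name, as every gene whose name without the ending .L or .S is one of these symbols, which gave 6 of the 49109 genes counted: thibz.L, thibz.S, klf9.L, bcl6.L, bcl6.S and nr1d1.L. X. laevis is allotetraploid, and .L and .S mark the gene copies carried by the longer and by the shorter member of each chromosome pair. No counted gene is named klf9.S or nr1d1.S, and the RefSeq annotation used for names holds neither. RNA was sequenced from midbrain at Nieuwkoop and Faber (NF) stages 44, 46, 55 and 61 with 3 samples each, at stage 49 with 2 samples and at stage 66 with 1 sample. Forebrain, hindbrain and spinal cord were sequenced at stage 46 with 3 samples each and at stage 49 with 2 samples each. The animals were albino tadpoles of both sexes kept on a daily light and dark cycle. Neither the labels nor the methods name a transgene, a hormone treatment or another agent for any group, and the groups differ in stage and region as labelled. The methods do not describe the stage 49 and stage 66 samples, so the animals and their handling are not stated for these.

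Thyroid hormone drives the metamorphosis of tadpoles, and its level in the blood peaks at metamorphic climax, the phase to which stage 61 belongs. Inside the cell the hormone binds receptors that sit on DNA as partners of retinoid X receptors (RXR), and genes carrying the receptors' binding sites are switched on directly. Several of these direct response genes encode transcription factors, which carry the response on to further genes. thibz encodes a basic leucine zipper protein that was named for its induction by the hormone in tadpoles. klf9 encodes a zinc finger protein of the Krüppel-like factor (KLF) family that answers to thyroid hormone and to corticosteroids in frogs and rodents. bcl6 encodes a zinc finger repressor that, in mouse cortex, drives progenitors to become neurons. nr1d1 encodes REV-ERB alpha, a nuclear receptor that represses clock genes in mammals.

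All 6 copies were higher at stage 61 than at each earlier midbrain stage with 3 samples, where the thibz copies were tested because of stage 61. Over all genes tested, 17.4% were higher at stage 61 than at stage 44, 18% than at stage 46 and 8.52% than at stage 55. The rise of nr1d1.L from stage 55 to 61 did not pass the test in 5 of 12 fits with a sample left out. The 6 copies differed in the size of the rise and in whether it lasted to stage 66. thibz went from a few counts per library to about 28 CPM, counts scaled to a common library total, for each copy and was under 2 CPM again in the stage 66 sample. klf9.L was the only copy that passed the test between stages 46 and 55, where 8.41% of the genes tested were higher at stage 55. The fitted change of thibz.L was 1.77 there on the log2 scale and did not pass, and whether the copies differ in this step was not tested. Against stage 44, nr1d1.L (log2 fold change 1.01), klf9.L (0.98) and bcl6.L (0.87) were higher at stage 55, beside 8.73% of the genes tested. None of these 3 rises passed the test with all 30 samples in 1 fit. bcl6 and nr1d1 rose by less and were still close to or above their stage 61 mean in the stage 66 sample. Over the regions of stage 46, klf9.L was the only copy of the 6 that differed, beside 11.9% of the genes tested, with its lowest mean in hindbrain. This difference did not pass the test in 6 of 12 fits with a sample left out.

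Between 1762544 and 11016124 reads per library were counted on genes. In 10 libraries over 0.5% of the counts fell in the 7289 genes that had at most 2 counts over the 12 midbrain libraries of stages 44, 46, 55 and 61, a limit set after seeing the data. These libraries were replicate 3 of forebrain, hindbrain and spinal cord at stage 46 and 7 of the 8 stage 49 libraries, the exception being replicate 1 of stage 49 midbrain. The share was 0.54% to 1.87% in the 10 libraries and at most 0.102% in the other 20. The 10 libraries had 1762544 to 4937973 counted reads against 6357375 to 11016124 in the others, and 42836 to 46638 genes with a count at equal depth against 27642 to 32570. The labels give no batch. None of the 12 midbrain libraries of stages 44, 46, 55 and 61 is among the 10. The spinal cord label was checked against a marker gene. At stage 46 the mean of hoxc10.L, a gene of the spinal cord, was 7.69 CPM in spinal cord and at most 0.55 CPM elsewhere.

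Levels are given as CPM after scaling all 30 libraries together by the trimmed mean of M values (TMM). They are not corrected for gene length, so they are compared between samples and not between genes. Midbrain stages were compared by edgeR's quasi-likelihood F test on the raw counts. A gene is said to have changed when its p adjusted by the Benjamini-Hochberg method over all genes tested was below 0.05, and to be called when its log2 fold change was also above 2 in size, the thresholds of the study. The samples are separate biological samples of a stage. All 6 copies passed the filter on low counts in the midbrain fit, but thibz.S had at least 10 counts in 0 of the 9 libraries outside stage 61 and thibz.L in 1 of them. These copies were tested because of their level at stage 61.

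The thibz.L copy had 0.669, 0 and 0.233 CPM in replicates 1 to 3 of stage 44, 0, 0.632 and 0.222 CPM at stage 46, and 1.61, 0.327 and 1.04 CPM at stage 55. It then had 25.1, 29.5 and 28.1 CPM at stage 61. The 3 stage 61 samples lay far above the other 9, while the earlier stages overlapped. The mean at stage 61 was 27.5 ± 2.23 CPM (SD, n = 3), and the CPM ratio of the summed counts was 28.4 against stage 55 (95% counting interval 19.1 to 44.3) and 100 against stage 46 (48.2 to 249.8). On the log2 scale the fitted change from stage 55 to 61 was 4.81 (SE 0.56, adjusted p = 2.96e-06, edgeR). This p is a description, because the copy entered the test through its level at stage 61. The change from stage 46 to 55 was 1.77 (SE 0.78) and did not pass the test (adjusted p = 0.129). The intervals of count ratios cover counting error only.

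The thibz.S copy had no count in any of the 6 midbrain libraries of stages 44 and 46, and a count of 0 allows a level of up to 0.126 CPM over the stage 44 libraries and 0.117 CPM over those of stage 46. At stage 55 it had 3 counts, all in replicate 2. At stage 61 it had 13, 43.2 and 32.6 CPM, so the lowest of these samples still lay far above every earlier one, and the spread among them was larger than for thibz.L. With the floor of 3 counts over the group, stage 61 exceeded stage 46 for thibz.S by at least 252-fold and stage 44 by at least 236-fold. Against the 3 counts of stage 55 the ratio was 246 (95% counting interval 83.7 to 1195). On the log2 scale the fitted change from stage 55 to 61 was 7.84 (SE 0.74, adjusted p = 1.32e-06, edgeR). This p is a description, because thibz.S entered the test through its level at stage 61.

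**Figure D1:**
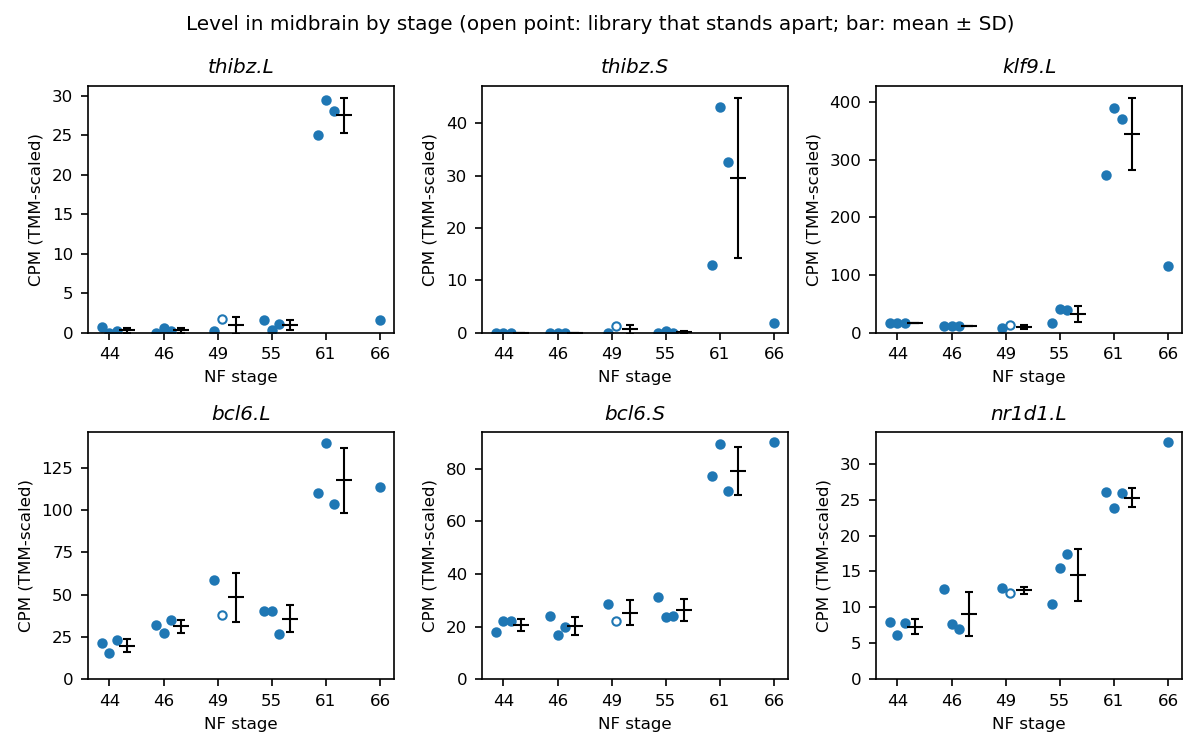
Level of each gene copy in midbrain (CPM after TMM scaling, 1 panel per copy with its own axis from 0) against NF stage. Each point is 1 library, open points are libraries that stand apart, and bars give the mean ± SD where a stage has more than 1 library. thibz and klf9.L peak at stage 61 and are lower at stage 66, while bcl6 and nr1d1.L stay high.

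The level of klf9.L was 16.4, 16.6 and 17.3 CPM at stage 44 and 10.8, 10.6 and 10.9 CPM at stage 46. It was 17.1, 41.2 and 39.2 CPM at stage 55 and 272.8, 389.9 and 371.0 CPM at stage 61. The stage 55 samples all lay above those of stage 46, and replicate 1 was well under the other two and overlapped with stage 44. The rise from stage 46 to 55 was 1.60 on the log2 scale (SE 0.24, adjusted p = 0.000189). It was followed by a larger one of 3.42 from stage 55 to 61 (SE 0.23, adjusted p = 4.75e-09), which brought the change from stage 46 to 61 to 5.02 (SE 0.26, adjusted p = 2.37e-11). Between stages 44 and 46 the samples did not overlap, with lower values at stage 46, but the change of -0.62 (SE 0.25) did not pass the test over all genes (adjusted p = 0.78 by edgeR). Of the 6 copies, klf9.L was the one that passed the test between stages 46 and 55, where 8.41% of the 26681 genes tested were higher at stage 55.

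The bcl6 copies started at similar CPM and rose together at the last step. bcl6.L had 21.4, 15.2 and 22.9 CPM at stage 44, 31.8, 27.3 and 34.7 CPM at stage 46, and 40.1, 40.4 and 26.7 CPM at stage 55. At stage 61 it had 109.8, 139.6 and 103.6 CPM, above all earlier samples. It was 1.74 higher at stage 61 than at stage 55 on the log2 scale (SE 0.19, adjusted p = 1.45e-06). Its stage 46 samples also lay above those of stage 44, by 0.68 (SE 0.20), which did not pass the test over all genes (adjusted p = 0.694 by edgeR), and stage 55 was higher than stage 44 by 0.87 (SE 0.20, adjusted p = 0.00455).

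bcl6.S had 17.9, 22 and 21.9 CPM at stage 44, 23.8, 16.8 and 19.8 CPM at stage 46, and 31.3, 23.7 and 24.1 CPM at stage 55. Stage 46 overlapped with both of the others, and none of the changes between them passed the test. The stage 61 samples stood clear of them at 77.2, 89.3 and 71.4 CPM. The step from stage 55 to 61 was 1.61 on the log2 scale (SE 0.19, adjusted p = 2.44e-06).

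The nr1d1.L copy showed the smallest change of the 6, spread over several stages. It had 8.03, 6.11 and 7.81 CPM at stage 44, 12.6, 7.71 and 6.98 CPM at stage 46, 10.5, 15.5 and 17.5 CPM at stage 55 and 26.1, 23.8 and 26 CPM at stage 61. Neighbouring stages overlapped up to stage 55, and the stage 61 samples lay above all others. The change from stage 55 to 61 was 0.82 on the log2 scale (SE 0.26, adjusted p = 0.0313). This change did not pass when any of 5 samples was left out: replicate 1 or 2 of stage 55, or any replicate of stage 61. It was then 0.64 to 0.84, with adjusted p between 0.0556 and 0.136 by edgeR. Against stage 46 the rise to stage 61 was 1.5 (SE 0.27, adjusted p = 0.000163), and from stage 44 to stage 55 it was 1.01 (SE 0.27, adjusted p = 0.0143). The latter change did not pass without replicate 2 of stage 44 (0.89, adjusted p = 0.0847) or replicate 3 of stage 55 (0.84, adjusted p = 0.0603). The gene next to nr1d1.L in the RefSeq annotation of the v10.1 assembly is thra.L, a thyroid hormone receptor, and neither this nor another annotated gene overlaps nr1d1.L there. The other 5 copies also overlap no annotated gene.

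Read against all genes, hardly any gene passed the test between midbrain stages 44 and 46. By edgeR 0 of the 6 copies changed, beside 0.00375% of the genes tested. At an unadjusted p below 0.05 it was 2 of the 6, klf9.L and bcl6.L, and by DESeq2 0 of the 6 changed. From stage 46 to stage 61, 6 of the 6 copies were higher, beside 18% of the genes tested. Called were 3 of the 6, thibz.L, thibz.S and klf9.L, beside 2.93% of the genes that were called higher. bcl6.L (1.93) and bcl6.S (1.996) lay just under the fold threshold. From stage 55 to stage 61, 6 of the 6 were higher beside 8.52%, and the same 3 copies were called beside 0.352%. From stage 44 to stage 61, 6 of the 6 were higher beside 17.4%, and bcl6.L (2.61, SE 0.20) joined the 3 copies, beside 3.15% called higher. thibz.L and thibz.S entered the test through stage 61, so their part of these counts is a description. Of the other 4 copies, 4 were higher at stage 61 than at each of stages 44, 46 and 55, and called were 2 of them against stage 44 and 1 against each of stages 46 and 55. Their median log2 fold change was 1.96 from stage 46 to 61 and that of all genes tested was -0.001. From stage 44 to stage 55, bcl6.L, klf9.L and nr1d1.L were higher, beside 8.73% of the genes tested, and none was called, beside 1.88% called higher.

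**Figure D2:**
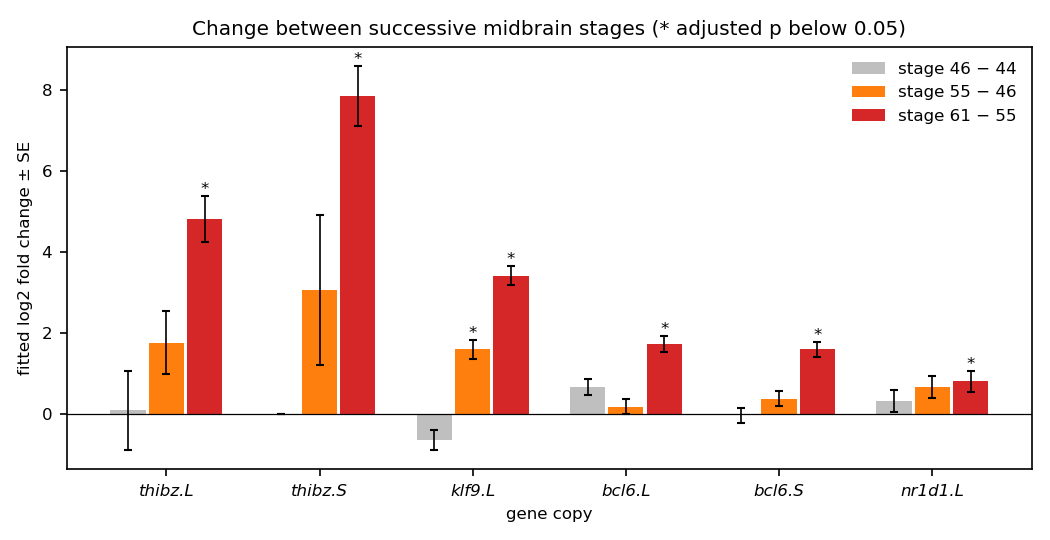
Fitted log2 fold change (bars) ± SE (lines) of each gene copy between successive midbrain stages of 3 samples each, with an asterisk where the adjusted p was below 0.05. Each copy passed the test in the step from stage 55 to 61, which the thibz copies entered through their level at stage 61. klf9.L was the only one to pass it from stage 46 to 55. The bars of thibz.S rest on 0 to 3 counts at the earlier stages and are no bound.

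The stage 66 midbrain, taken at the end of metamorphosis, was 1 library, so its values carry counting error only and have no test. thibz.L had 9 counts, or 1.62 CPM (95% interval 0.739 to 3.07), which is 5.87% of its stage 61 mean. thibz.S had 10 counts, or 1.80 CPM (0.861 to 3.30), which is 6.07% of its stage 61 mean. Both copies lay far under every stage 61 sample, and thibz.S lay above all midbrain samples up to stage 55. klf9.L, at 116.1 CPM (107.4 to 125.5), was at 33.7% of its stage 61 mean, and this was still above the highest stage 55 sample. In contrast, bcl6.L, at 113.8 CPM, was within the range of the stage 61 samples. bcl6.S at 90.1 CPM and nr1d1.L at 33.0 CPM were above the highest stage 61 samples of 89.3 and 26.1 CPM. Thus thibz and klf9.L at stage 66 lay below the stage 61 samples, and bcl6 and nr1d1.L did not, in the 1 library at hand.

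Where a gene has both copies, the share of the counts that the .L copy takes can be followed within a sample. At stage 61 thibz.L took 65.9%, 40.5% and 46.3% of the CPM of the thibz pair in replicates 1 to 3, and 47.4% in the stage 66 sample. The copies thus had similar CPM at stage 61, without a correction for gene length, and replicate 1 differed through its low thibz.S. At stages 44 and 46 thibz.S had no count, so the share rests on at most 5 counts of thibz.L per library. For bcl6 the .L share was between 40.9% and 67.1% over all midbrain samples, and 58.7%, 61.0% and 59.2% at stage 61. The mean log2 ratio of .L over .S, with 0.5 CPM added to each, was 0.28 at stages 44 and 46 and 0.49 at stages 55 and 61 (n = 6 samples each). This difference of 0.21 did not pass the test (p = 0.372, exact two-sided permutation test, where the smallest p possible is 0.00216). The bcl6 ratio was 0.25, -0.52 and 0.06 in replicates 1 to 3 of stage 44. At stage 46 it was 0.41, 0.68 and 0.79, without overlap. The test pools these stages, so it does not show that the ratio was steady. For thibz the ratio at stages 44 and 46 is set by the 0.5 CPM added, so that no test of it is given. How reads that match both copies were assigned is not stated, so the split between .L and .S is less certain than their sum.

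Stage 49 midbrain falls between stages 46 and 55. It had 2 samples, of which replicate 2 is among the libraries that stand apart. bcl6.L had 58.5 and 38.2 CPM there, above the 3 samples of stage 46, and this was the only copy that changed from stage 46 (0.76, SE 0.22, adjusted p = 0.0222), where 9.81% of the 30219 genes tested were higher at stage 49 and the median of all genes was itself shifted by 0.11. Without replicate 1 of stage 49 the change was 0.44, and without its replicate 2 it was 0.92. Each of these fits leaves 1 sample of stage 49, so only the size is given and no pass is read from it. The change did not pass without replicate 1 (0.76, adjusted p = 0.058) or replicate 2 (0.65, adjusted p = 0.0925) of stage 46. klf9.L had 7.46 and 12.8 CPM at stage 49, on either side of the stage 46 samples, and was higher at stage 55 by 1.51 (SE 0.31, adjusted p = 0.0147), beside 2.37% of all genes. bcl6.S, at 28.7 and 22 CPM, and nr1d1.L, at 12.7 and 12.1 CPM, did not pass either test.

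The thibz copies at stage 49 followed the kind of library. In midbrain replicate 1, thibz.L had 1 count and thibz.S had 0, while replicate 2, with fewer reads, had 11 and 8. Over all regions of stages 46 and 49, the 10 libraries that stand apart had 109 counts of thibz.L and 100 of thibz.S, with counts of both copies in each library. The 10 other libraries of these stages had 15 counts of thibz.L, in 5 libraries, and 4 counts of thibz.S, in 2 libraries. In the 10 libraries the thibz counts lay between percentiles 77 and 98.4 for the .L copy, and between 70.4 and 97.2 for the .S copy, of the 7289 genes hardly counted in midbrain, so those genes and thibz were counted in the same libraries. The part of the library in these thibz counts was not tested separately from stage and region. At stage 61 thibz reached 38.1 to 72.6 CPM for both copies together, and those 3 libraries had 0.0022% to 0.0039% of their counts in the 7289 genes.

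**Figure D3:**
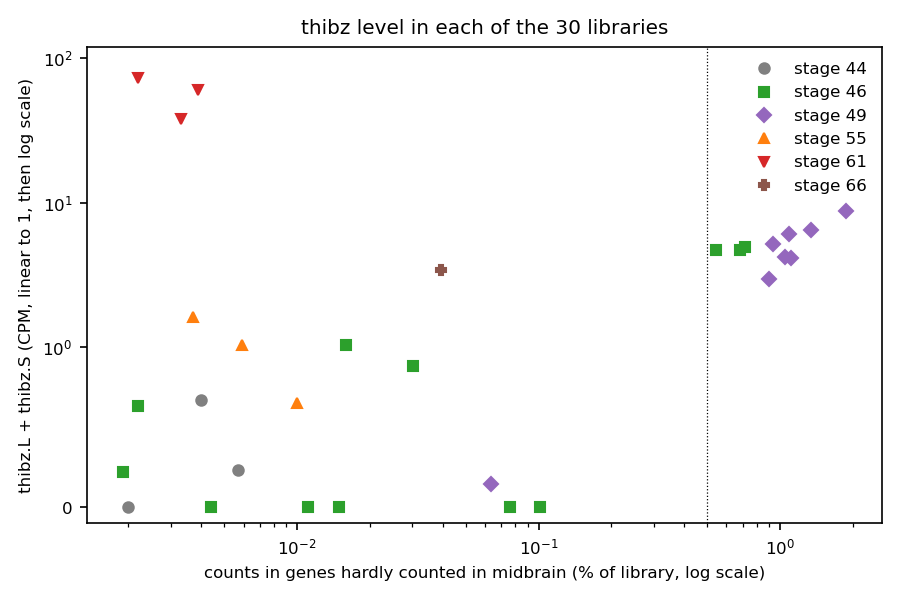
Summed level of thibz.L and thibz.S in each of the 30 libraries (vertical, CPM, linear up to 1 and log scale above) against the percentage of the library's counts in the 7289 genes with at most 2 counts over 12 midbrain libraries (log scale), with symbols for stages. The dotted line is at 0.5%; the 10 libraries to its right hold 2.94 to 8.79 CPM of thibz, and the 3 stage 61 libraries hold the highest levels far to its left.

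Over the 4 regions of stage 46, klf9.L was the one copy of the 6 that differed (adjusted p = 0.0207, edgeR's F test over the regions), beside 11.9% of the 34485 genes tested. It had 20.1, 20.2 and 13 CPM in forebrain, 10.8, 10.6 and 10.9 CPM in midbrain, 9.90, 6.06 and 9.21 CPM in hindbrain, and 22.8, 15 and 15 CPM in spinal cord. Forebrain and spinal cord overlapped with each other and lay above midbrain and hindbrain, which also did not overlap. Hindbrain was lower than forebrain (log2 fold change -1.08, SE 0.28, adjusted p = 0.0398), beside 1.53% of all genes, and spinal cord was higher than hindbrain by 1.04 (SE 0.28, adjusted p = 0.0406), beside 2.55%. The other 4 pairs did not pass this test, but 2 of them passed in other fits. Midbrain was lower than forebrain by DESeq2 (-0.87, adjusted p = 0.0247) and with only the 2 groups in the edgeR fit (-0.88, adjusted p = 0.029). Spinal cord was higher than midbrain by DESeq2 (0.86, adjusted p = 0.0107) and with only the 2 groups (0.85, adjusted p = 0.0165). In the main fit the median of all genes was itself shifted, by -0.18 for midbrain minus forebrain and 0.26 for spinal cord minus midbrain. With only the 2 groups, the differences of hindbrain from forebrain (adjusted p = 0.138) and from spinal cord (adjusted p = 0.107) were lost, and with no filter on low counts their adjusted p was 0.0526 and 0.0546. Without replicate 3 of forebrain, hindbrain and spinal cord, the libraries that stand apart, the difference over the regions remained (adjusted p = 0.0113). It was lost without any 1 of 6 other libraries, namely replicate 1 or 2 of forebrain, replicate 2 of hindbrain or any replicate of midbrain, with adjusted p between 0.0509 and 0.0682. The difference of hindbrain and forebrain was lost in 7 of 12 such omissions and that of spinal cord and hindbrain in 10 of 12, with values of -1.24 to -0.86 and 0.81 to 1.19.

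Same-numbered forebrain, hindbrain and spinal cord samples of stage 46 deviated together across genes (r of 0.419 to 0.849), and midbrain samples did not share this. Deviations were from the mean of 3 samples, of which replicate 3 stands apart in each of these regions. This r therefore does not tell a pairing of samples from the kind of library. These 3 regions were also fitted alone, a choice made after seeing the data. With the replicate number as a block, klf9.L differed over them (adjusted p = 0.0205, edgeR), beside 17% of the 33487 genes tested, and without the block it did not pass (adjusted p = 0.0719, beside 7.33%). In the blocked fit hindbrain was lower than forebrain (log2 fold change -1.12, SE 0.30, adjusted p = 0.0276), and spinal cord was higher than hindbrain by 1.04 (SE 0.30, adjusted p = 0.03). Neither pair passed without the block (adjusted p = 0.0983 and 0.0955, edgeR). The other 5 copies had adjusted p from 0.271 to 0.978 over these regions with the block.

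The other copies did not pass the test over the 4 regions of stage 46. bcl6.L had means from 20.5 CPM in hindbrain to 31.3 CPM in midbrain (adjusted p = 0.369), and bcl6.S from 15.1 CPM in spinal cord to 23.6 CPM in forebrain (adjusted p = 0.468). nr1d1.L had means from 8.24 CPM in forebrain to 12.1 CPM in spinal cord (adjusted p = 0.755). Samples of hindbrain and spinal cord did not overlap for nr1d1.L, nor those of midbrain and hindbrain for bcl6.L, nor those of forebrain and spinal cord for bcl6.S. thibz.L (adjusted p = 0.913) and thibz.S (adjusted p = 0.624) had 0 to 5 counts per library outside the libraries that stand apart.

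At stage 49, 0 of the 6 copies differed between the regions by edgeR (2 samples each), with adjusted p between 0.693 and 0.913, beside 0.536% of the 35609 genes tested. In this test over all regions the count at an unadjusted p below 0.05 was also 0. By DESeq2 the count was 0 among the copies for which it gave an adjusted p. Between pairs of regions, bcl6.S was lower in spinal cord than in forebrain (log2 fold change -0.92), midbrain (-0.76) and hindbrain (-0.72). The unadjusted p by edgeR was 0.0166, 0.0371 and 0.0498, and none of these differences passed after adjustment. Its spinal cord samples had 15.45 and 11.37 CPM, and the lowest sample elsewhere had 18.4 CPM, in hindbrain. Levels of klf9.L were 18.4 and 14.7 CPM in forebrain, 7.46 and 12.8 CPM in midbrain, 14.9 and 15.6 CPM in hindbrain, and 15.8 and 12 CPM in spinal cord, with midbrain replicate 1 the lowest. That sample is the one stage 49 library that does not stand apart. When midbrain replicate 2 was left out, so that the kind of library and the region cannot be told apart, klf9.L (adjusted p = 0.0357), bcl6.S (0.0307), thibz.L (0.00496) and thibz.S (0.000288) passed the test. Whether the change from stage 46 to 49 differed between regions was tested by the interaction of stage and region. It was below an adjusted p of 0.05 for 0 of the 6 copies, beside 0.559% of the 42559 genes tested, and below an unadjusted p of 0.05 for klf9.L (adjusted p = 0.529 by edgeR).

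**Figure D4:**
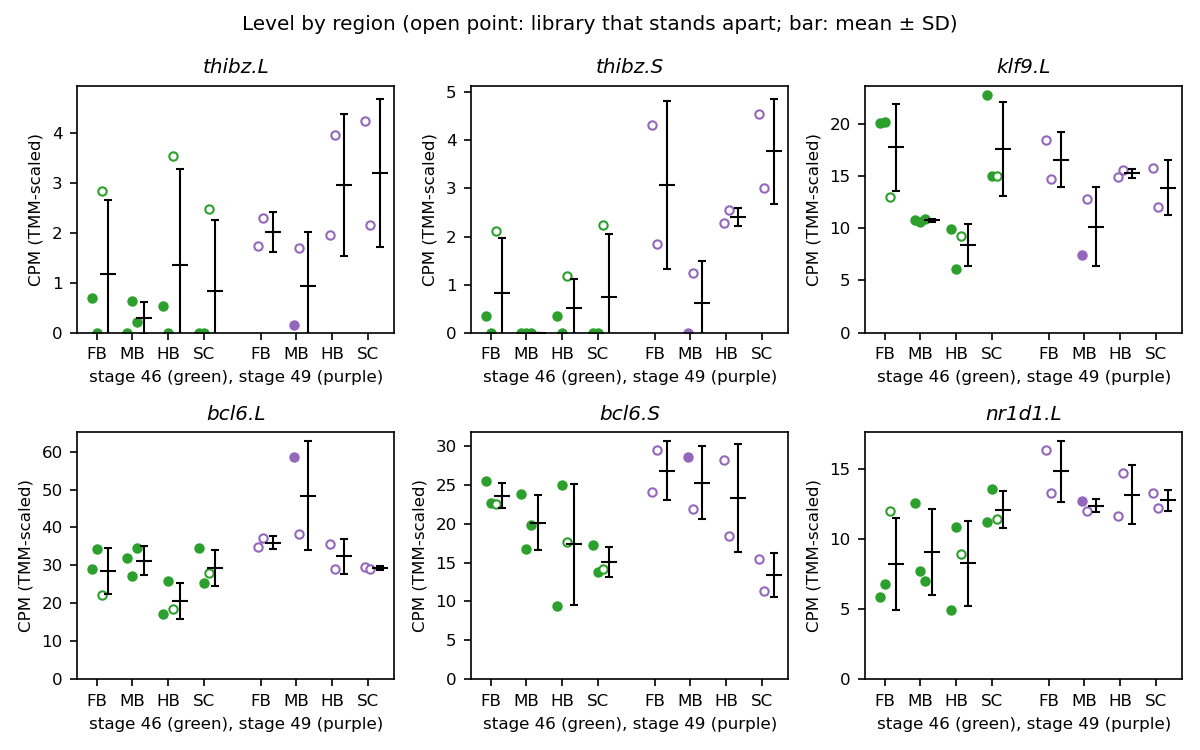
Level of each gene copy (CPM after TMM scaling, axes from 0) in forebrain (FB), midbrain (MB), hindbrain (HB) and spinal cord (SC) at stage 46 (green) and stage 49 (purple). Points are libraries, open where a library stands apart, and bars give the mean ± SD, without the part under 0; counts of thibz come mostly from open points, and klf9.L at stage 46 is lowest in hindbrain.

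The rise of the 6 copies at stage 61 was set beside other genes of the pathway, from lists written with earlier results of these data known. The receptors and their RXR partners had 5 of 8 copies higher at stage 61 than at stage 46 and 0 lower, beside 18% higher and 19.9% lower over all genes, with a median log2 fold change of 0.83. thrb.L, the receptor gene that thyroid hormone itself induces, rose by 3.21 (SE 0.42). Of the deiodinases, the enzymes that activate or degrade the hormone, dio3.L rose by 3.65 (SE 0.44) and dio2.L had a log2 fold change of -3.71 (SE 0.22). The transporters and binding proteins split evenly, with 4 of 11 higher and 4 lower. Among them crym.L, which encodes a hormone-binding protein, rose by 4.66 (SE 1.09), while the largest falls were in the thyroid hormone transporter copy slc16a10.S (-3.63, SE 0.84) and in slc7a8.S (-2.17, SE 0.19), an amino acid transporter that also carries thyroid hormones.

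Other genes known to respond to the hormone moved both ways, with 3 of 12 higher and 5 lower and a median of -0.32. Over all genes tested 18% were higher and 19.9% lower. Higher were mbp.S (5.72, SE 0.24) and mbp.L (4.37, SE 0.20), which encode myelin basic protein, and the matrix protease gene mmp11.L (3.09, SE 0.77). Lower were mecom.S (-2.34, SE 0.35), mmp14.L (-1.62, SE 0.19) and mecom.L (-1.5, SE 0.23). The listed response genes thus did not move in 1 direction.

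Of 23 other copies of the KLF family, 4 were higher and 4 lower at stage 61 than at stage 46, close to the 18% higher and 19.9% lower over all genes. None was called, and the median log2 fold change was 0.17. klf11.L (1.06, SE 0.18), klf3.L (1.02, SE 0.27) and klf2.S (0.98, SE 0.29) had the largest rises, and klf5.S (-1.91, SE 0.62), klf15.L (-1.74, SE 0.29) and klf10.S (-1.08, SE 0.28) the largest falls. klf9.L, at 5.02, lay outside this range.

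The circadian clock genes and the related PAR bZIP genes, the pathway of nr1d1, had 12 of 29 copies higher and 3 lower. This was beside 18% and 19.9% over all genes, and the median of the list was 0.66. The largest rises were in bhlhe40.L (2.11, SE 0.40), dbp.S (1.89, SE 0.32) and rora.L (1.82, SE 0.30). bhlhe40 encodes a repressor of the clock and rora a nuclear receptor that acts through the same DNA elements as REV-ERB alpha in mammals. Lower were tef.S (-0.61, SE 0.23), csnk1e.S (-0.61, SE 0.13) and csnk1e.L (-0.56, SE 0.18). Between stages 55 and 61, where nr1d1.L rose by 0.82, 2 of the 29 were higher and 1 was lower, beside 8.52% and 10.7% of the genes tested. The time of day at which the samples were taken is not stated, and its part in these clock gene values was not tested.

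Genes of the corticosteroid response, the other hormone to which klf9 answers, had 4 of 15 copies higher and 3 lower at stage 61 than at stage 46, beside 18% and 19.9% over all genes, with a median of 0.08. The mineralocorticoid receptor copies nr3c2.S (2.21, SE 0.32) and nr3c2.L (2.19, SE 0.17) and the kinase gene sgk1.S (1.07, SE 0.29) rose most. crhbp.L, the binding protein of corticotropin-releasing hormone, fell (-1.76, SE 0.34), as did the transcription factor copies zbtb16.S (-0.74, SE 0.16) and zbtb16.L (-0.42, SE 0.14). Of the genes related to bcl6 and of those for the corepressors that BCL6 recruits in mammals, 2 of 10 copies were higher, among them ncor1.S (0.50, SE 0.14). Another 2 were lower, bcor.S (-0.71, SE 0.14) and hdac3.S (-0.54, SE 0.16). These counts were close to the 18% higher and 19.9% lower over all genes, and the median was -0.09.

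**Figure D5:**
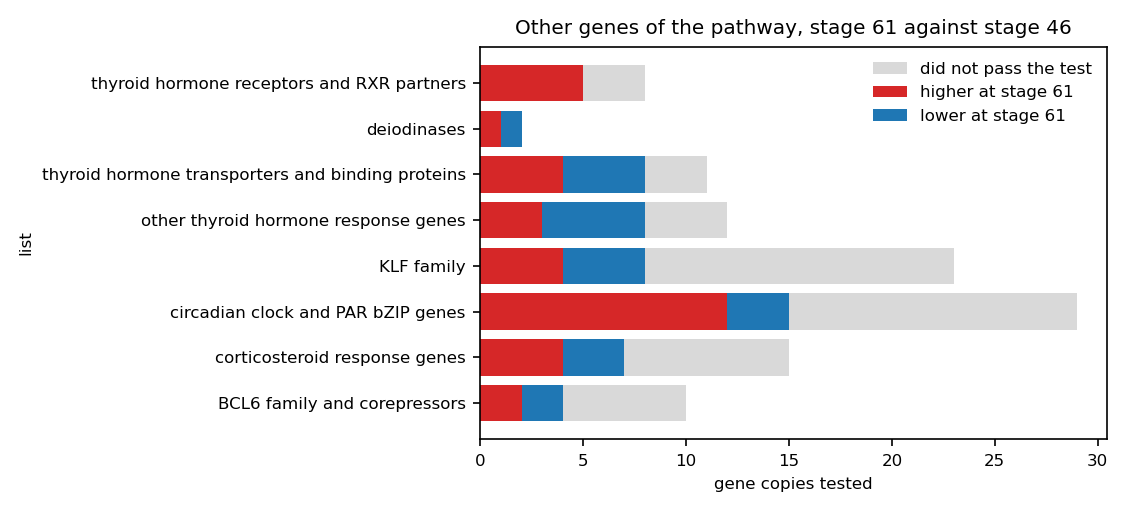
Number of gene copies of each pathway list (horizontal) that were higher (red), lower (blue) or did not pass the test (grey) at stage 61 against stage 46 in midbrain, without the 6 copies described here. The receptors hold rises and no falls, and the other lists hold both.

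Markers of several cell types moved over the same stages. In bulk tissue, a change in the number of cells of a type and a change in RNA per cell cannot be told apart. Over all genes tested, 18% were higher and 19.9% lower at stage 61 than at stage 46. All 6 oligodendrocyte marker copies were higher, among them mbp.L and mbp.S, which are also in the list of hormone response genes. The summed level of these 6 copies was 52.7 to 67.5 CPM at stage 46, 615.3 to 1076 CPM at stage 55 and 2252 to 3368 CPM at stage 61. No copy was at 0. Microglia and leukocyte markers summed to 1.14 to 7.65, 32.9 to 61.1 and 18.7 to 37.7 CPM at these stages, with 4 of 6 copies higher at stage 61 than at stage 46. Radial glia markers were lower at stage 61, with 3 of 6 copies lower and 1 higher, and summed to 10210 to 10910 CPM at stage 46 and 2827 to 3721 CPM at stage 61. Neuron markers summed to 4227 to 5140 CPM at stage 46 and 5813 to 6703 CPM at stage 61, with 4 of 7 copies higher. Epidermis markers fell in 6 of 6 tested copies and photoreceptor markers in 4 of 5. All 8 tested copies of red blood cell markers changed, 2 higher and 6 lower, and their sum was 700.4 to 1587 CPM at stage 46 and 192.4 to 332.1 CPM at stage 61. The part of these cell types in the rise of the 6 copies was not tested.

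Across the 30 libraries, the genes most like each copy were named by Pearson's r of log2 CPM, as a description over samples that share stages, regions and kinds of library. For thibz.S the closest was thrb.L (r = 0.882), followed by spats2l.L (r = 0.824) and slc7a2.2.L (r = 0.821). For thibz.L they were kissr2.S (r = 0.818), esr1.S (r = 0.806) and thrb.L (r = 0.802). klf9.L was closest to pmepa1.L (r = 0.889), nfic.L (r = 0.882) and etnppl.L (r = 0.869), whose means also rose from stage 55 to 61 and were lower in the stage 66 sample. For bcl6.L they were laptm4b.S (r = 0.882), adipoq.L (r = 0.85) and rhobtb2.S (r = 0.842), and for bcl6.S kcnn3.S (r = 0.895), prrt3-like.S (r = 0.862) and nr3c2.L (r = 0.854). nr1d1.L was closest to nacc2.S (r = 0.887), slc35f3.S (r = 0.874) and sgtb.L (r = 0.857). Among the 6 copies themselves, r over the 20 libraries that do not stand apart was highest between thibz.L and thibz.S (0.932) and between klf9.L and thibz.S (0.922), and lowest between nr1d1.L and thibz.L (0.645). With all 30 libraries the same pairs had r of 0.924, 0.675 and 0.61. For the genes named as most like a copy, r without the 10 libraries that stand apart was between 0.803 and 0.91.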

How the data were processed

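The deposited table holds raw counts per gene, which the authors made by aligning single-end reads to the X. laevis v9.2 genome with STAR 2.5.2a and counting alignments with HTSeq 0.11.1. The RNA had been amplified to cDNA before library preparation. The use of strand and the handling of reads that match several places are not stated. The authors' 2 tables normalized with DESeq2 1.22.2 were not used. The 49109 genes of the 30 libraries were read, and 6 of the 6 gene copies described have an entry in RefSeq v10.1, which was used for names and neighbours only.

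Counts were filtered (filterByExpr, minimum count 10, minimum total 15), scaled by TMM and tested with edgeR 4.0.16 in R 4.3.3 (robust quasi-likelihood F test). The 12 midbrain libraries of stages 44, 46, 55 and 61 were fitted together, and stage 49 was added only for its own comparisons. The stage 46 regions, the stage 49 regions and their interaction were fitted separately. The SE of a log2 fold change is its size divided by the square root of F. DESeq2 1.42.0, other scaling, no filter, other samples in the fit, a replicate block, summed copies and leave-one-out fits were alternatives, and the steps were tested on simulated counts. Named beside the copies were, per list, up to 3 changed genes with the largest rises and falls from stage 46 to 61, and the 3 genes of highest correlation among those with a mean of at least 1 CPM. The gene copies and lists were chosen with earlier results of these data known. The p-values of edgeR set a difference against the spread between samples of a group. This spread was estimated over all groups of a fit, with other genes taken into account. The permutation test of the bcl6 ratio pooled stages and does not use this spread. A listed gene that the naming rule picks and a regional marker are not reported here.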

Additional observations from a re-analysis of the deposited data

Results flagged for a closer look

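The stage 66 midbrain library entered no test, and each of the 6 copies had more than 3 counts in it, above what a count of 0 allows. The levels were 113.8 CPM for bcl6.L, 90.1 CPM for bcl6.S, 116.1 CPM for klf9.L, 33.0 CPM for nr1d1.L, 1.62 CPM for thibz.L and 1.80 CPM for thibz.S. No other sample of stage 66 was analysed here, so that no spread can be given for these values. The change from stage 46 to 49 differed between regions for none of the 6 copies by the interaction test, and no group had enough samples for a check of a single far sample.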

How the results depend on the processing

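The rises of the 6 copies from stages 44 and 46 to stage 61 kept their direction and passed the test under each alternative run. So did those of bcl6, klf9.L and thibz.S from stage 55 to 61. The rise of klf9.L from stage 46 to 55 did so as well (1.41 to 1.90 with a sample left out). For thibz these passes are a description, because its copies entered the test through stage 61. With all 30 samples in 1 fit the adjusted p was above 0.05 for thibz.L (4.78) and nr1d1.L (0.80) from stage 55 to 61, for bcl6.L (0.85), klf9.L (0.96) and nr1d1.L (0.99) from stage 44 to 55, and for bcl6.L from stage 46 to 49 (0.63). Leaving out 1 sample gave nr1d1.L 0.64 to 0.97 from stage 55 to 61, 0.84 to 1.19 from stage 44 to 55 and 0.51 to 0.97 from stage 46 to 55, where it passed the test without replicate 1 of stage 46 or of stage 55. It gave bcl6.L 0.44 to 0.92 from stage 46 to 49.

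Other values turned sign in several fits, and thibz also passed the test in some. From stage 44 to 46, bcl6.S was 0.36 with the copies summed and -0.15 to 0.089 with a sample left out, and thibz.L was -1.08 to 1.21 in the latter fits. From stage 46 to 49, klf9.L was -0.085 with all samples and -0.043 with no filter, and -0.51 to 0.41 with a sample left out, and thibz.L was -0.84 to 3.02, passing the test without replicate 1 of stage 49. thibz.S passed it there with no filter (5.34), with the replicate block (5.26) and without replicate 1 of stage 49 (range with a sample left out 5.44 to 6.47), and had no value without replicate 2. From stage 49 to 55, bcl6.S was 0.057 with all samples and 0.027 with no filter, thibz.L was 0.10 and 0.047, and klf9.L did not pass with only the 2 groups (1.5). With a sample left out, the ranges there were -0.23 to 0.10 for bcl6.S, -0.089 to 0.26 for nr1d1.L, -0.95 to 2.60 for thibz.L and -5.44 to 3.05 for thibz.S, which passed without replicate 1 of stage 49 (-3.43, adjusted p = 0.0311). With the copies summed, bcl6 passed from stage 44 to 55 (0.63) and from stage 46 to 49 (0.59), and with no filter thibz.L passed from stage 44 to 55 (1.86). The thibz ratio of .L over .S, which the added CPM sets at the early stages, changed by 0.06 with 0.5 CPM added, by -0.24 with 0.1 CPM, and by -0.22 to 0.30 with a sample left out.

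Over the regions, the adjusted p of klf9.L at stage 46 was 0.0134 to 0.0682 with a sample left out. At stage 49 those of bcl6.S, klf9.L, thibz.L and thibz.S reached down to 0.0307, 0.0357, 0.00496 and 0.000288, and up to 0.997, 1, 1 and 0.997, with a sample left out. Genes called between stages 44 and 46 numbered 1 in the main test, 18 with no filter, 4 with DESeq2, 4 with only the 2 groups, and 1 to 13 with a sample left out. With a fold limit of 1, the counts were 1980 (stage 44 to 55), 5278 (44 to 61), 1843 (46 to 55), 5448 (46 to 61) and 2335 (55 to 61), and with all 30 samples 319 (44 to 55) and 231 (46 to 55). The causes were not tested.

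Replicate numbers are shared between groups. Same-numbered samples deviated together only weakly in midbrain (r of -0.052 to 0.029 across genes) and unevenly over the regions of stage 49 (-0.517 to 0.35). With 2 samples per group at stage 49, both replicate numbers give the same r. At stage 46 same-numbered samples deviated together in forebrain, hindbrain and spinal cord (0.419 to 0.849) and not with midbrain (-0.01 to 0.028). Replicate 3 of those 3 regions stands apart, so this r does not tell a pairing of samples from the kind of library. For those 3 regions alone the block brought the adjusted p of klf9.L to 0.0205 from 0.0719, and the genes that differed to 5692 from 2456. In this fit of 3 regions, klf9.L also came to pass between hindbrain and forebrain (adjusted p = 0.0276 from 0.0983, edgeR). Between spinal cord and hindbrain its adjusted p went to 0.03 from 0.0955. Elsewhere the block changed no pass or failure at an adjusted p of 0.05 but the one of thibz.S given above. With it 2039 genes were called from stage 46 to 61, against 2090. The promoter motifs that had been planned were not run. Depth limits thibz outside stage 61, where counts per midbrain library were at most 13.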
